A study of Mus musculus with 24 samples.

Results

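The cell cycle and DNA replication genes examined here are 35 genes, chosen by name as cyclins, cyclin-dependent kinases, replication and mitosis genes, of 19938 genes with a value on the arrays. All 35 were measured, and they comprise 19 genes of the G1/S transition and replication, 14 genes of G2 and mitosis and 2 inhibitors of cyclin-dependent kinases. The comparisons asked whether loss of *Tbx1*, loss of *β-catenin*, or both losses combined moved the proliferation programme of the anterior heart field (AHF), the pharyngeal mesoderm that adds the outflow tract and right ventricle to the heart tube.

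RNA of pharyngeal tissue, microdissected at E9.5 from embryos with 19 to 21 somite pairs, was hybridized to Affymetrix mouse Gene ST arrays in 3 experiments of 4 mutant and 4 control arrays. *Tbx1 LOF* embryos were *Mef2c-AHF-Cre/+* with *Tbx1* f/- or *Tbx1* f/f, *β-cat LOF* embryos were *Mef2c-AHF-Cre/+;β-catenin* f/f, and rescue embryos carried the *Tbx1 LOF* genotype with 1 added *β-catenin* flox allele. For the arrays the methods name Cre-free *Tbx1* f/+, *β-catenin* f/+ and *Tbx1* f/+;*β-catenin* f/+ embryos as controls of the respective experiments. By that account only the mutant arrays carried the Cre. The labels instead name wild type and *Mef2c-AHF-Cre/+;Tbx1* f/+ littermates, which the methods give as controls where they describe the mouse crosses. The Cre is driven by an AHF enhancer of *Mef2c* and acts in only some of the dissected cells, each array holds tissue of several embryos, and the labels do not say which arrays came from separate litters, so the p-values measure the spread between these samples.

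Progress through the cell cycle is driven by cyclins that bind and activate cyclin-dependent kinases (CDKs). D cyclins with Cdk4 or Cdk6, and then E cyclins with Cdk2, release the E2F transcription factors, which switch on the genes of DNA replication. Genes of G2 and mitosis are switched on later, in part through Foxm1, and proteins of the Cdkn1 family hold the kinases inactive. Heart field progenitors at this stage divide and are added to the heart tube, while cardiomyocytes in the tube divide less.

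The targeted genes were examined first. *Tbx1* fell by 0.64 on the log2 scale in *Tbx1 LOF* (limma, adjusted p = 0.00626), and its 4 mutant arrays, 10.98 to 11.43, lay below its 4 controls, 11.77 to 11.99. In rescue the *Tbx1* difference was -0.31 (95% interval -0.50 to -0.11) and did not pass the adjusted test. *Ctnnb1*, which encodes β-catenin, differed by -0.03 ± 0.06 (log2, SE) in *β-cat LOF*, and whether its probe set covers the deleted exons is not known here. Of 9 AHF and pharyngeal markers 8 had a value, between 9.03 and 11.99 in every array, and 15 cardiac muscle markers were also present, *Myl7* for example at 11.35 to 13.32, although the heart tube was not dissected.

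The G1/S and the G2/M genes held different promoter motifs, which were not used to choose them. RefSeq promoters of the mouse build GRCm38.p6, from 250 bases before to 50 after the transcription start, were available for 27 of the 35 genes. The CHR element (TTTGAA, or TTCGAA, on either strand), known from late cell cycle genes, was present in 10 of 11 G2/M promoters, 90.9%, in 2 of 15 G1/S promoters, 13.3%, and in 19% of the promoters of 15614 measured genes. The E2F core (TTGGCGC or TTCCCGC, on either strand) was present in 7 of 15 G1/S promoters, 46.7%, in 2 of 11 G2/M promoters, 18.2%, and in 10.7% of all. The CCAAT box, on either strand, was present in 90.9% of the G2/M, 66.7% of the G1/S and 41.7% of all promoters. These matches describe letters within the window and were not tested. The promoters of *Ccnb2* (chr9:70421505-70421804, minus strand), *Mki67* (chr7:135716330-135716629, minus strand), *Mcm6* (chr1:128359656-128359955, minus strand) and *Rrm1* (chr7:102441445-102441744, plus strand) are shown 5′ to 3′. They were chosen because these genes also varied together between arrays of the *Tbx1 LOF* experiment, as described further on. In the *β-cat LOF* and rescue experiments their differences between higher-numbered and lower-numbered arrays, both genotypes together, were not all of the same sign. Capitals mark CHR, E2F and CCAAT matches, where ATTGG is CCAAT on the opposite strand.
Ccnb2: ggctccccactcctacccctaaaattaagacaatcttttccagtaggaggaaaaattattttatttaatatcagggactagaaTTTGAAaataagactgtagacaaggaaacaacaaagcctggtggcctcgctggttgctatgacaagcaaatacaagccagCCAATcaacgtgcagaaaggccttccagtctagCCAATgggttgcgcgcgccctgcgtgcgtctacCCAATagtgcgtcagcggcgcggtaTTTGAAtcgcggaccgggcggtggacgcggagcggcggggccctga
Mki67: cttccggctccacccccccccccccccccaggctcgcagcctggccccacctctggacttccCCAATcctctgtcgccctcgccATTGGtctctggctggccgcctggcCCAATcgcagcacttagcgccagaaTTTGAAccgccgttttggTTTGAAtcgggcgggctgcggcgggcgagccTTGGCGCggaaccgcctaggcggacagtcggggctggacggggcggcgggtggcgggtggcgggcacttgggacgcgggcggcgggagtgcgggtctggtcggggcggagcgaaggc
Mcm6: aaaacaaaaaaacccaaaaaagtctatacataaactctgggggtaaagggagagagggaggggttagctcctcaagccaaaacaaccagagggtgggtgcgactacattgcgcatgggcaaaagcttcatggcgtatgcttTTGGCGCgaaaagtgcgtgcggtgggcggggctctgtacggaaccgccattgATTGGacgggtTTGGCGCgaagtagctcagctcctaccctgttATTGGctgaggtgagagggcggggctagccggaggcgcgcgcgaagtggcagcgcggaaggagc
Rrm1: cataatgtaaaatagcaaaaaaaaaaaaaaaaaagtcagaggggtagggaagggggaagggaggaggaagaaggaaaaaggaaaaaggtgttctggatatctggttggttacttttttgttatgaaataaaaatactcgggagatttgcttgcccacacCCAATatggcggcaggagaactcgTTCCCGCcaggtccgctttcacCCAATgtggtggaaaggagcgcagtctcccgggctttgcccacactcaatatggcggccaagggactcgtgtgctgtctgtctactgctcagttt

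The pair of mitotic genes carried the CHR 2 times each, with CCAAT boxes upstream of it or between its copies, and *Mki67* also held an E2F core. The replication genes *Mcm6*, which encodes a subunit of the replicative helicase, and *Rrm1*, which encodes the large subunit of ribonucleotide reductase, held CCAAT boxes and E2F cores and no CHR in this window.

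None of the 35 genes passed the test in *Tbx1 LOF*, *β-cat LOF* or rescue. At a limma adjusted p under 0.05 the count was 0 of 35 in each comparison, against 0.0301% of all genes in *Tbx1 LOF*, 0% in *β-cat LOF* and 0% in rescue. At an unadjusted p under 0.05 it was also 0 of 35 in each, against 4.12%, 5.72% and 1.27% of all genes. The 95% confidence interval of the change lay wholly within a 1.5-fold change either way for all 35 genes in all 3 comparisons, and within 1.2-fold for 33 genes in *Tbx1 LOF*, 31 in *β-cat LOF* and 32 in rescue. Over all genes the shares within 1.5-fold were 98.0%, 97.8% and 98.9%, and those within 1.2-fold were 73.4%, 65.5% and 76.1%. The median residual SD between arrays was 0.07 (log2) for the cell cycle genes and 0.11 over all genes, and *Plk1* had the narrowest range over the 24 arrays, 12.73 to 12.88, while *Cdkn1c* had the widest, 10.73 to 12.06. The SEs pool the spread of all 24 arrays, and with the rescue experiment fitted by itself 1 gene, *Top2a*, reached an unadjusted limma p of 0.0487 (limma adjusted p = 0.997). *Top2a* is the average of 2 probe sets, of which the brighter differed by -0.01 in rescue. The tissue is bulk, so fewer dividing cells and less RNA per dividing cell cannot be told apart in any of these values.

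**Figure D1:**
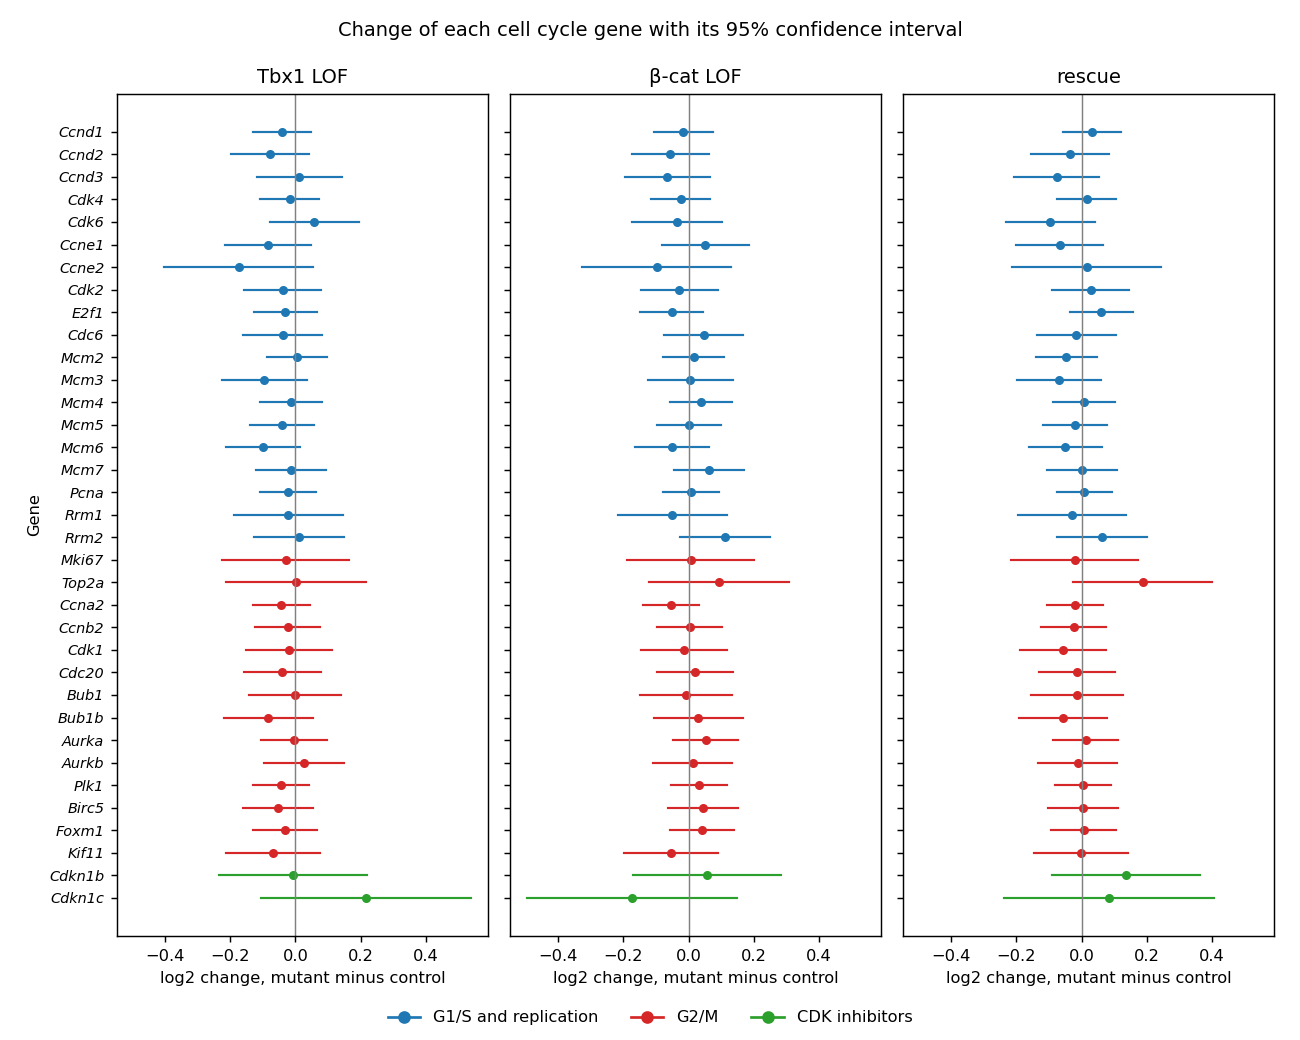
Change of each of the 35 genes (log2 signal, mutant minus its own control; points) with its 95% confidence interval (lines), for the 3 mutant genotypes, with 4 mutant and 4 control arrays in each. Every interval includes 0, and *Cdkn1c*, *Cdkn1b*, *Top2a* and *Ccne2* have the widest.

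The median change of the 35 genes was -0.03 in *Tbx1 LOF*, 0.01 in *β-cat LOF* and -0.01 in rescue, on the log2 scale, beside medians of -0.01, 0.01 and -0.02 over all genes. The sign in *Tbx1 LOF* was not stable, since with array quality weights the median was 0.003 over the 35 genes, -0.01 for the G1/S and 0.02 for the G2/M genes. Without the weights the difference in *Tbx1 LOF* was negative for 28 of the 35 genes, 80%, while it was negative for 58.7% of all genes. It was also negative for 72 of 85 other measured cell cycle genes in *Tbx1 LOF*, with a median of -0.04. These differences are smaller than the spread between arrays, where the mean over the 35 genes had a pooled SD of 0.04. They carry no test, since genes of 1 array move together. In *β-cat LOF* 15 of the 35 differences were negative, and in rescue 19.

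By phase, the G1/S and replication genes had medians of -0.03, -0.02 and -0.02 in *Tbx1 LOF*, *β-cat LOF* and rescue, and the G2/M genes had -0.03, 0.02 and -0.01. The mean of the G2/M genes minus that of the G1/S genes lay between -0.04 and 0.05 in every array, and the array means of both phases overlapped between mutant and control in all 3 experiments. In *Tbx1 LOF* the mean deviation of the G1/S genes from their average over all arrays was 0.05, 0.09, -0.06 and -0.02 in arrays 1 to 4, and in its controls 0.12, 0.10, -0.01 and -0.01. The G2/M means were 0.07, 0.08, -0.09 and 0.02 against 0.12, 0.07, 0.01 and 0.01. In both genotypes of that experiment arrays 1 and 2 were the higher ones. Between same-numbered arrays the G1/S mean was lower in the mutant in 4 of 4, by -0.08 to -0.01, and the G2/M mean in 2 of 4. In *β-cat LOF* the G1/S means spanned -0.09 to 0.02 in mutants and -0.04 to 0.01 in controls, and in rescue -0.03 to -0.01 and -0.02 to 0.01.

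**Figure D2:**
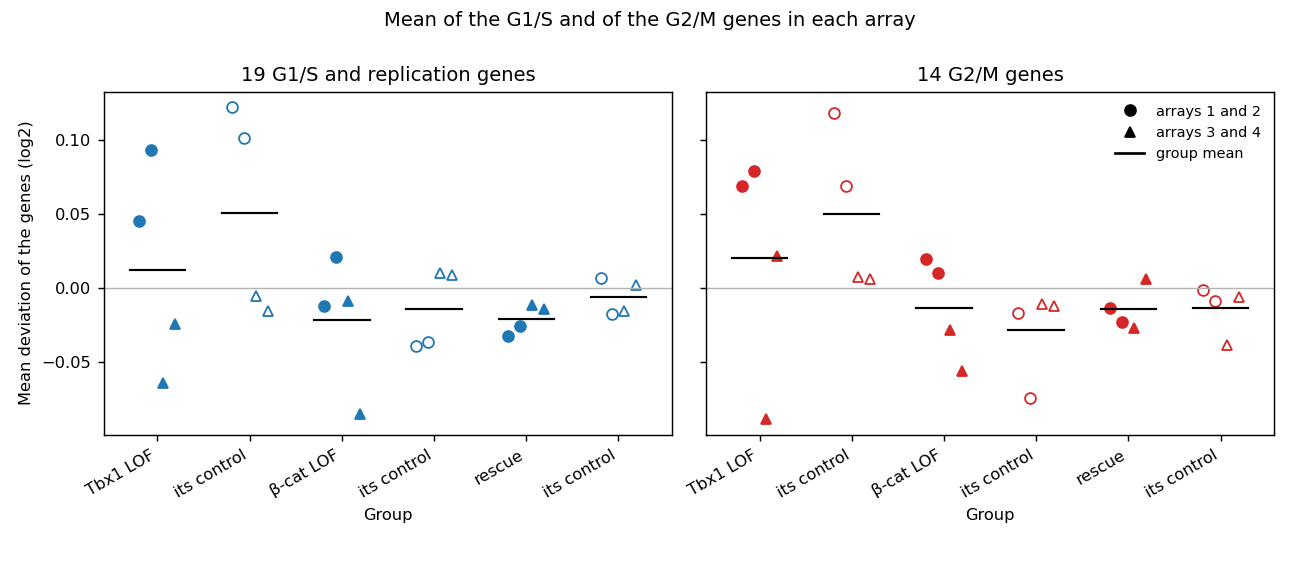
Mean deviation (log2) of the 19 G1/S and replication genes and of the 14 G2/M genes in each of the 24 arrays, by group; filled symbols are mutants, open symbols controls, and lines group means. Mutant and control arrays overlap in every experiment, and arrays 1 and 2 of the *Tbx1 LOF* experiment lie highest in both genotypes.

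The D cyclins and their kinases, which start the passage through G1, did not pass the test in any comparison. *Ccnd1* differed by -0.04, -0.02 and 0.03 in *Tbx1 LOF*, *β-cat LOF* and rescue, *Cdk4* by -0.02, -0.02 and 0.02, and *Cdk6* by 0.06, -0.04 and -0.10. The 95% intervals of *Ccnd1* and *Cdk4* lay between -0.13 and 0.12 throughout. *Ccnd2* (chr6:127125162-127152188) measured 12.78, 12.81, 12.80 and 12.78 in the rescue arrays and 12.84, 12.83, 12.83 and 12.82 in their controls, so that the mutants lay below all controls. The difference was -0.04 ± 0.06 (log2, SE; limma p = 0.530), and the two-sided exact permutation test gave 0.0286, the smallest p that 4 arrays against 4 allow. Groups that do not overlap always give this p, and genes were chosen for description by that lack of overlap. The permutation p of 0.0286 thus adds no support, here or for the genes below. *Ccnd3* (chr17:47505051-47599689) was arranged alike in rescue, at 12.06, 12.14, 12.09 and 12.13 against 12.19, 12.18, 12.17 and 12.18. Its difference was -0.08 ± 0.06 (log2, SE; limma p = 0.241; exact permutation p = 0.0286). In the other experiments both genes overlapped between genotypes, with *Ccnd2* at 12.72 to 12.89 in *Tbx1 LOF* against 12.80 to 13.03 in its controls and *Ccnd3* at 12.06 to 12.36 against 12.10 to 12.32.

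The E cyclins *Ccne1* and *Ccne2*, which activate Cdk2 at the start of S phase, did not pass the test either. *Ccne1* (chr7:38097984-38107490) measured 11.95, 12.02, 11.95 and 11.93 in *Tbx1 LOF* and 12.10, 12.10, 12.03 and 11.95 in its controls, which overlap at the highest mutant and the lowest control array. Its difference was -0.08 ± 0.06 (log2, SE; limma p = 0.204; exact permutation p = 0.0571). In rescue its arrays were 11.90, 11.99, 11.99 and 11.96 against 12.01, 12.02, 12.07 and 12.01 and did not overlap, with a difference of -0.07 ± 0.06 (log2, SE; limma p = 0.308; exact permutation p = 0.0286). In *β-cat LOF* the *Ccne1* difference was 0.05, and the change in *Tbx1 LOF* minus that in *β-cat LOF* was -0.14, with a 95% interval of -0.32 to 0.05. *Ccne2* differed by -0.17, -0.10 and 0.02 in the 3 experiments, and in *Tbx1 LOF* 1 array, at 10.03 against 10.58 to 10.80 in the other 3, lay apart. *Cdk2* differed by -0.04, -0.03 and 0.03, and *E2f1*, the E2F factor whose targets include the replication genes, by -0.03, -0.05 and 0.06.

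The replication genes comprised the helicase loader *Cdc6*, the helicase subunits *Mcm2* to *Mcm7*, the polymerase clamp *Pcna* and the ribonucleotide reductase subunits *Rrm1* and *Rrm2*. Their differences lay between -0.10 and 0.11 in all 3 experiments. The lowest limma p among the 35 genes in *Tbx1 LOF* was that of *Mcm6*, whose arrays were 11.75, 11.75, 11.59 and 11.67 against 11.91, 11.88, 11.68 and 11.69 in controls. The difference was -0.10 ± 0.05 (log2, SE; limma p = 0.0801; exact permutation p = 0.229), with overlapping groups. With a term for the array numbers the same difference had a limma p of 0.0224, and with array quality weights it was -0.02. *Rrm2*, the regulatory subunit that supplies deoxynucleotides in S phase, had the lowest p in *β-cat LOF*, at a difference of 0.11 (95% interval -0.03 to 0.25; limma p = 0.108; exact permutation p = 0.229). Of the other helicase subunits *Mcm3* differed by -0.10, 0.01 and -0.07, *Mcm5* by -0.04 in *Tbx1 LOF* and -0.02 in rescue, and *Mcm7* by 0.06 in *β-cat LOF*, all with intervals that include 0. *Pcna* lay between 13.14 and 13.32 in all 24 arrays and differed by -0.02, 0.01 and 0.01, and its pair of probe sets gave nearly equal values.

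The G2/M genes include the proliferation antigen *Mki67*, the mitotic cyclins *Ccna2* and *Ccnb2* with their kinase *Cdk1*, the anaphase activator *Cdc20*, the spindle checkpoint kinases *Bub1* and *Bub1b*, the mitotic kinases *Aurka*, *Aurkb* and *Plk1*, *Birc5* of the chromosomal passenger complex, the transcription factor *Foxm1* and the spindle motor *Kif11*. For these 13 genes the differences lay between -0.08 and 0.05 in all 3 experiments. *Mki67* measured 12.55, 12.61, 12.10 and 12.35 in *Tbx1 LOF* and 12.62, 12.49, 12.23 and 12.38 in its controls. The genotypes overlapped and differed by -0.03 (95% interval -0.22 to 0.17), while arrays 3 and 4 were lower than 1 and 2 in both. *Mki67* differed by 0.01 in *β-cat LOF* and -0.02 in rescue. *Cdk1* differed by -0.02, -0.01 and -0.06, and its cyclin *Ccna2* by -0.04, -0.05 and -0.02. Of the checkpoint kinases *Bub1b* differed by -0.08, 0.03 and -0.06, the largest of the 13 in *Tbx1 LOF*, with intervals that include 0. *Aurkb* differed by 0.03, 0.01 and -0.01, and *Foxm1* by -0.03, 0.04 and 0.01.

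*Top2a* (chr11:98992947-99024199), the topoisomerase that untangles DNA for mitosis, had the largest absolute change of the 35 genes in rescue. It measured 8.990, 8.996, 9.047 and 9.302 in rescue and 9.034, 8.889, 8.722 and 8.944 in the controls, which overlapped. The difference was 0.19 ± 0.10 (log2, SE; limma p = 0.0838; exact permutation p = 0.0857). The value is the average of 2 probe sets that differed. Probe set 10390707 read 12.37 to 12.75 over all arrays and differed by -0.01 in rescue, and probe set 10390746 read 5.08 to 6.43 and differed by 0.38. The difference in the average thus lay in the dimmer probe set. In *Tbx1 LOF* the brighter probe set of *Top2a* differed by -0.05.

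The CDK inhibitors were the most variable of the 35 genes, with residual SDs of 0.17 for *Cdkn1b* and 0.24 for *Cdkn1c*. *Cdkn1c* (chr7:143458339-143461059) encodes p57, which stops the cycle as cells differentiate, and had the largest absolute change in both *Tbx1 LOF* and *β-cat LOF*, with opposite signs. In *Tbx1 LOF* its arrays read 11.27, 11.20, 11.07 and 11.01 in arrays 1 to 4, against 11.17, 10.94, 10.84 and 10.73 in controls. The groups overlapped by control array 1, while each mutant array was above the control of the same number, by 0.10, 0.25, 0.23 and 0.28. The difference was 0.22 ± 0.15 (log2, SE; 95% interval -0.11 to 0.54; limma p = 0.179; exact permutation p = 0.114). With a replicate block its unadjusted limma p was 0.0866 and the adjusted p 0.978, and with array quality weights the difference was 0.31, with an unadjusted p of 0.0418 and an adjusted p of 0.849. In *β-cat LOF* the arrays read 11.54, 11.22, 11.02 and 11.04 against 11.39, 12.06, 11.11 and 10.95, a difference of -0.17 ± 0.15 (log2, SE; 95% interval -0.49 to 0.15; limma p = 0.278; exact permutation p = 0.629). The control at 12.06 stood above every other array, and without it the difference was 0.05. In rescue *Cdkn1c* read 10.890, 10.946, 10.974 and 10.945 against 10.888, 10.797, 10.848 and 10.889, and every mutant array lay above every control, the closest by the third decimal. That difference was 0.08 ± 0.15 (log2, SE; limma p = 0.598; exact permutation p = 0.0286).

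**Figure D3:**
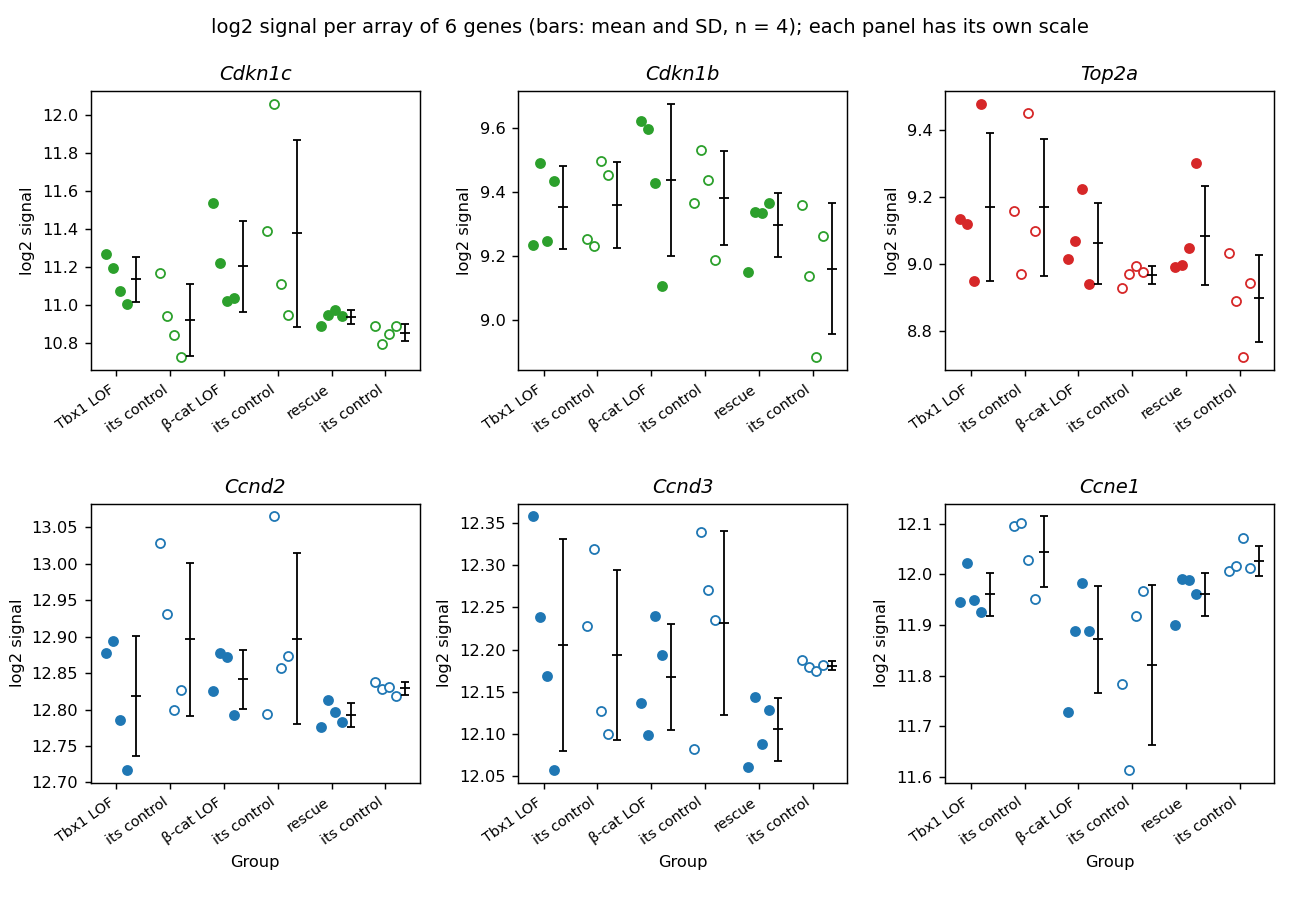
log2 signal of *Cdkn1c*, *Cdkn1b*, *Top2a*, *Ccnd2*, *Ccnd3* and *Ccne1* in each array (points, filled for mutants and open for controls) with the mean and SD of each group of 4 (bars). The control array of *β-cat LOF* at 12.06 stands apart for *Cdkn1c*, and in rescue the mutants lie below the controls for *Ccnd2*, *Ccnd3* and *Ccne1* by at most 0.08 on average.

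Markers of several tissues differed in the array with the highest *Cdkn1c*, cardiac muscle the most. The mean deviation of the 15 cardiac muscle markers was 2.26 in the *β-cat LOF* control array with the *Cdkn1c* value of 12.06, against 0.15 to 0.89 in the other 3 controls and -0.45 to 0.09 in the mutants. In *Tbx1 LOF* it was 0.26 to 0.57 against -0.67 to -0.09 in controls, and in rescue -0.53 to 0.00 against -0.84 to 0.06. None of the 15 read below 7.27 in any array, where the lowest value of the table was 3.62, and *Actc1* read 12.44 to 14.02. The same *β-cat LOF* control had the highest endothelium mean of the 24 arrays, 0.31, and the lowest means of neural tube, -0.42, neural crest, -0.29, and pharyngeal endoderm markers, -0.18, and its liver and gut markers were at 0.80 against -0.36 to 0.09 in the other controls. In *Tbx1 LOF* the neural crest mean was -0.26 to -0.08 against -0.05 to 0.09 in controls, without overlap, and that of liver and gut was 0.02 to 0.89 against -0.26 to 0.36. In *β-cat LOF* the neural tube mean was -0.03 to 0.08 against -0.42 to -0.25, without overlap. The part of these tissues in the *Cdkn1c* values was not tested. *Cdkn1b*, which encodes p27, differed by -0.01, 0.06 and 0.14, all with intervals that include 0. Its 2 probe sets differed in sign, at 0.02 and -0.03 in *Tbx1 LOF* and at -0.06 and 0.17 in *β-cat LOF*. In rescue both were positive, at 0.04 for the brighter, which read 10.39 to 10.97, and 0.23 for the dimmer, at 7.38 to 8.44.

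Arrays that did not overlap between mutant and control were counted over all 35 genes. The count was 0 in *Tbx1 LOF*, where 1.32% of all genes lay above and 0.973% below, and 0 in *β-cat LOF*, where 2.06% lay above and 0.787% below. In rescue 1 gene, *Cdkn1c*, lay above its controls, against 0.737% of all genes, and 3 genes, *Ccnd2*, *Ccnd3* and *Ccne1*, lay below, against 2.24%.

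The difference of the changes was tested directly. Of the 35 genes, 0 differed between *Tbx1 LOF* and *β-cat LOF* at a limma adjusted p under 0.05 and 0 at an unadjusted p under 0.05, beside 0.0502% and 6.44% of all genes. Between *Tbx1 LOF* and rescue the counts were also 0 and 0, beside 0% and 1.71%. The largest difference was that of *Cdkn1c*, at 0.39 for *Tbx1 LOF* minus *β-cat LOF* (95% interval -0.07 to 0.84; limma adjusted p = 0.864). With a replicate block for same-numbered arrays its unadjusted limma p was 0.0344, and the adjusted p was 0.488. The labels do not state the pairing that this block uses. The negative *β-cat LOF* change in this difference rests on the control array at 12.06, without which that change was positive. The *Cdkn1c* interval reached beyond 1.5-fold, and for 34 of the 35 genes the interval lay within it, beside 93.2% of all genes. For *Tbx1 LOF* minus rescue the largest differences were -0.19 for *Ccne2* and -0.19 for *Top2a*, whose intervals both included 0. For *Ccne2* 1 *Tbx1 LOF* array, at 10.03, lay apart. The brighter *Top2a* probe set differed by -0.05 in *Tbx1 LOF* and -0.01 in rescue, and the dimmer by 0.05 and 0.38.

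Some of the 35 genes passed the adjusted test in another comparison, between arrays of the same experiment across both genotypes. Both genotypes of an experiment carry the array numbers 1 to 4, the labels do not say what the numbers stand for, and arrays 3 and 4 were compared with arrays 1 and 2 by a term added to the fit. Of the 35 genes, 15 (42.9%) were lower in arrays 3 and 4 of the *Tbx1 LOF* experiment at a limma adjusted p under 0.05, against 19% of all genes, and 0 were higher, against 6.12%. The 15 comprised 8 G1/S genes (*Ccnd2*, *Ccnd3*, *Cdk6*, *Ccne2*, *Cdk2*, *Mcm6*, *Mcm7* and *Rrm1*) and 7 G2/M genes (*Mki67*, *Ccnb2*, *Cdk1*, *Bub1*, *Bub1b*, *Aurkb* and *Kif11*). Median differences were -0.12 over the 35 genes and -0.03 over all genes.

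For the 15 genes that passed, the difference was present in both genotypes. *Rrm1* read 12.94, 13.00, 12.63 and 12.76 in *Tbx1 LOF* and 12.98, 13.02, 12.73 and 12.69 in its controls, and arrays 3 and 4 differed by -0.28 ± 0.04 (log2, SE; limma adjusted p = 9.1e-05). *Mki67* differed by -0.30 ± 0.06 (log2, SE; limma adjusted p = 0.000941), by -0.35 within mutants and -0.25 within controls. *Ccnb2*, with CHR copies and no E2F core in its promoter, differed by -0.13, and *Mcm6*, with E2F cores and no CHR, by -0.16. *Ccnd3* and *Cdk6*, with neither motif, differed by -0.17 and -0.18. *Top2a* and *Plk1*, with CHR and no E2F core, differed by 0.15 and 0.03. A relation of the motifs to the difference was not tested. Over both genotypes together all 19 G1/S genes had a lower value in arrays 3 and 4, beside 60.0% of all genes. *Ccnd1* (-0.003) and *Cdc6* (-0.01) were nearly level. Within mutants alone *Ccnd1*, *Cdc6* and *Mcm2* were higher, by 0.02, 0.05 and 0.01. Of the G2/M genes *Foxm1*, *Plk1*, *Birc5* and *Top2a* were not lower over both genotypes. Of 85 other cell cycle genes 33 were lower and 6 higher by the same test. Within arrays 1 and 2 the median change of the 35 genes between *Tbx1 LOF* and controls was -0.02, and within arrays 3 and 4 it was -0.04.

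**Figure D4:**
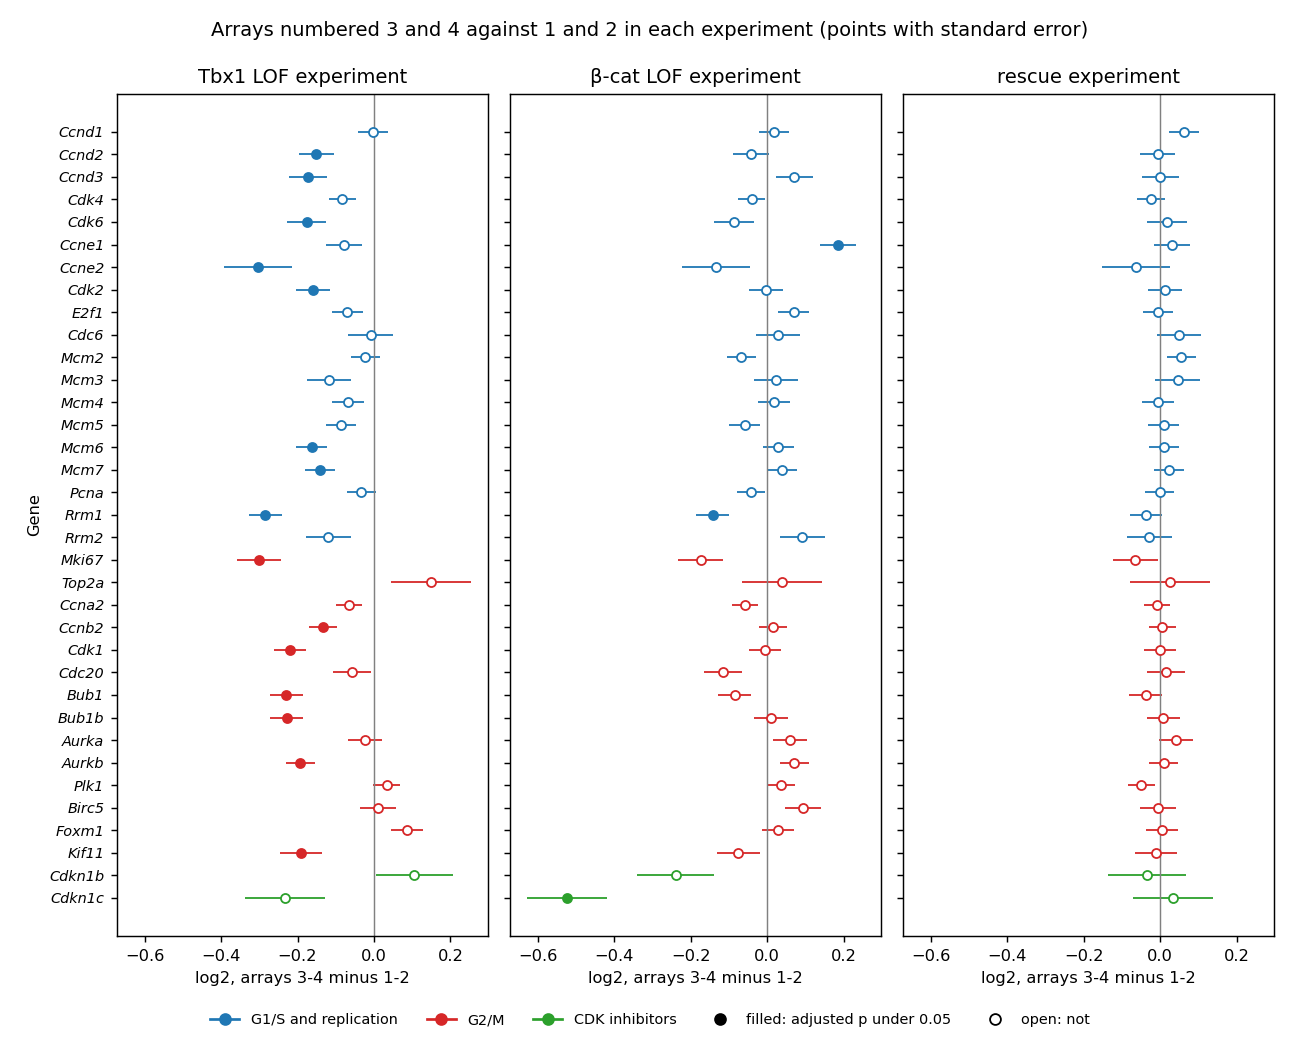
Difference (log2) of arrays 3 and 4 minus arrays 1 and 2 for each of the 35 genes in the 3 experiments, both genotypes together, with its standard error; filled points have a limma adjusted p under 0.05. 15 genes are filled for *Tbx1 LOF* and all of them are negative, in the *β-cat LOF* experiment 3 are filled, and in the rescue experiment none is.

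In the *β-cat LOF* experiment 2 of the 35 genes were lower in arrays 3 and 4, *Cdkn1c* by -0.52 and *Rrm1* by -0.14, against 6.17% of all genes, and 1 was higher, *Ccne1* by 0.19, against 5.57%. Within arrays 1 and 2 the median change of the 35 genes was 0.05, and within arrays 3 and 4 it was -0.03. In the rescue experiment 0 were lower and 0 higher, against 0% and 0% of all genes. The paper reports that its arrays were run in batches, with clear batch effects above all in the *β-cat LOF* and *Tbx1 LOF* data. Its limma model blocked for batch. No source used here assigns single arrays to batches, and whether the numbers follow a batch was not tested.

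Pairs of the 35 genes ranged widely in how they varied between arrays within groups. Over 24 arrays, after the group means were subtracted, the median Pearson correlation was 0.37 over 171 pairs of G1/S genes, 0.24 over 91 pairs of G2/M genes and 0.28 over 266 pairs across the phases, beside 0.05 over all pairs of the 19938 genes. Single pairs reached from -0.77 to 0.93. The CDK inhibitors had medians of 0.11 with the G1/S and 0.02 with the G2/M genes. Only group means were subtracted, so the differences between array numbers given above remain in these correlations. The pairs share their arrays, so the correlations are a description with no test.

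Other genes of the cell cycle were counted by the same tests. Of 31 measured G1/S, 36 G2/M and 18 regulatory genes outside the 35, 0 passed an adjusted p under 0.05 in *Tbx1 LOF*, *β-cat LOF* or rescue. At an unadjusted p under 0.05 there were 2 in *Tbx1 LOF*, the spindle checkpoint kinase *Ttk* (-0.17, 95% interval -0.31 to -0.02) and *Wee1*, the kinase that holds Cdk1 inactive (-0.11, interval -0.21 to -0.004). This is 2 of 85, beside 4.12% of all genes. There were 0 in *β-cat LOF*, beside 5.72%, and 2 in rescue, beside 1.27%, the CDK inhibitor *Cdkn2b* (-0.21, interval -0.39 to -0.04) and the kinetochore gene *Ndc80* (-0.17, interval -0.32 to -0.02). In *Tbx1 LOF* 3 of the 85 genes lay below all controls, beside 0.973% of all genes, and 0 lay above. *Ttk* read 10.50 to 10.66 against 10.70 to 10.82, *Wee1* 11.19 to 11.30 against 11.35 to 11.38, and *Ect2*, which acts in cytokinesis, up to 12.10 against 12.11 to 12.15. In rescue *Chaf1b* and *Ndc80* lay below, beside 2.24% of all genes, and *Smc2* above, beside 0.737%. In *β-cat LOF* the count was 0.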

How the data were processed

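The deposited values are log2 signals that the authors computed by RMA in the oligo package, which corrects background, normalizes by quantiles and summarizes probes. The sources used here give neither its version nor a genome build. From 100 ng of total RNA per array, labelled cDNA was hybridized to 24 arrays. Whether batch correction with ComBat is in the values is not stated, so it was not repeated. Array medians lay between 8.00 and 8.14, and precision is limited by 4 arrays a group.

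Of 35556 probe sets, 21789 with 1 gene symbol were kept and averaged per gene, which gave 19938 genes; 999 genes had more than 1 probe set. No filter on low values was used. limma 3.58.1 in R 4.3.3 fitted 6 group means over all 24 arrays, with 18 residual degrees of freedom, and p-values were adjusted by Benjamini-Hochberg over all genes. Single genes were also compared by two-sided exact permutation tests. The fit was tested on simulated data, drawn independently for each gene and array and with no difference between array numbers. Promoters were RefSeq sequences, searched in Python 3.11.15.

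The 35 genes, their phases and the other lists were chosen with earlier results of these data known. Genes given array by array were those whose groups did not overlap in a comparison or that had the largest absolute change in one; *Mcm6*, *Rrm1*, *Mki67*, *Pcna* and *Ccne2* were added after their values were seen. Same-numbered mutant and control arrays deviated together in the *Tbx1 LOF* experiment (correlations 0.157 to 0.494), and a fit with the replicate number as a block was made beside the main one, which has no block. The labels do not state a pairing, and 1 of the 4 mutant arrays correlated best with its own number. In the other experiments correlations were 0.0889 to 0.479 (*β-cat LOF*) and -0.0638 to 0.256 (rescue). Mutant arrays 3 and 4 of *β-cat LOF* and array 3 of rescue correlated best with their own number. In the main fit the numbers were taken as names. Alternatives changed the pairing, a term for the array numbers, probe sets, filter, scaling, variance model, array weights and arrays left out.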

Additional observations from a re-analysis of the deposited data

Results flagged for a closer look

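Within groups of 4, an array was marked when its gap to the nearest other array exceeded Dixon's 95% critical value as a share of the group's range. This held for 6 of 102 groups tested, and chance marks about 1 in 20. In the rescue experiment *Cdkn1b* read 9.15 in mutant array 1, *Ccne2* read 10.42 in mutant array 3, and control array 3 read 12.07 for *Ccne1* and 12.67 for *Rrm1*. The mean deviation of the G2/M genes was -0.0747 in control array 2 of the *β-cat LOF* experiment, the lowest of its group, and that of the CDK inhibitors was -0.182 in mutant array 1 of the rescue experiment. That *β-cat LOF* control is the array with the highest cardiac muscle markers.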

How the results depend on the processing

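The count of 0 of 35 genes at an adjusted p under 0.05 was the same in all 104 refits, over 5 comparisons and 34 settings, including the replicate block for same-numbered arrays, where it was also 0 and no call changed. At an unadjusted p under 0.05 the refits gave 0 to 2 genes. Median changes moved by more than the SD between arrays in few cases. With array weights the G2/M median was 0.0218 in *Tbx1 LOF*, 0.00589 for *Tbx1 LOF* minus *β-cat LOF* and 0.0256 for *Tbx1 LOF* minus rescue. Within arrays 1 and 2 of the *β-cat LOF* experiment the medians were 0.0528 over all 35 genes, 0.0309 for G1/S and 0.0654 for G2/M. By less than that SD, array weights also turned the sign of the median over the 35 genes. It was then 0.00339 in *Tbx1 LOF* and 0.0106 for *Tbx1 LOF* minus rescue. The cause was not tested. *Cdkn1c* in *β-cat LOF* was 0.05 without control replicate 2 and 0.07 with array weights. Depth has no meaning for arrays, and 4 arrays a group limit what can be detected.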
